A study of Mus musculus with 16 samples.

Results

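The 414 open chromatin regions described here are those of the deposited list that overlap the extended mouse major histocompatibility complex (MHC), taken as 33700 to 37400 kb of chromosome 17 on the mm9 build. They are 414 of 75363 regions in the series (0.549%) and 414 of 3295 on chromosome 17, and all 414 lay in the window by their full width. The regions come from ATAC-seq, in which a transposase cuts accessible DNA, on CD4+CD25+ regulatory T cells (Treg cells) from C57BL/6 animals. The titles of the 16 samples number the replicates and name the tissue paired with each spleen, but name no mouse. If each numbered pair came from 1 mouse of its own, there were 8 mice, each with 1 tissue sample and 1 spleen sample. Whether animals were pooled, or shared between groups, cannot be read from the titles. The tissue samples were 2 of epididymal adipose tissue, 2 of injured hindlimb muscle and 4 of colonic lamina propria. Of these 4, the titles call 2 Nrp1p and 2 Nrp1n. The labels give no genotype beyond the strain, no age, and no treatment other than the muscle injury. The list holds positions only, and its name refers to tissue Treg cells. Which samples contributed to a region, and at what read depth, is not given in the sources used here, so no tissue was set against spleen, and the purity of the sorted cells could not be checked against marker genes.

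The MHC is among the most gene-rich stretches of mammalian genomes. Its class I genes encode the molecules that show peptides from inside a cell to CD8 T cells and, for some members, to natural killer cells. Its class II genes encode the molecules that show peptides to CD4 T cells, Treg cells among them, and in mice are expressed mainly by B cells, dendritic cells, macrophages and thymic epithelium. Class III lies between them and holds genes of complement, heat shock proteins and the cytokines TNF and lymphotoxin. In the mouse, class I genes lie on both sides: H2-K1 before class II, and the H2-D, H2-Q, H2-T and H2-M genes after class III.

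The MHC was divided into 4 stretches by rounded positions: a proximal class I stretch (33700 to 34200 kb), class II (34200 to 34600 kb), class III with Tnf, Lta and Ltb (34600 to 35400 kb) and a distal class I stretch (35400 to 37400 kb). The RefSeq gene table at hand is of another assembly, GRCm38.p6, so it was read for names and order alone, and regions were not matched to genes. In that order, the 16 genes from H2-Oa to H2-Ea include H2-DMa, H2-DMb1 and H2-DMb2, whose products load peptides onto class II molecules, and H2-Ab1, H2-Aa and H2-Eb1, the chains of the class II molecules themselves. Tap1 and Tap2 (the peptide transporter of class I loading), Psmb8 and Psmb9 (subunits of the immunoproteasome) and Brd2 (a chromatin reader) lie among them. The 78 genes from Notch4 to Ddx39b, of which 57 code for proteins, make up class III, and Ltb, Tnf and Lta follow one another near its end. From H2-D1 to H2-M3 there are 143 genes, 44 of them pseudogenes. Of these 143, 30 carry an H2 name and 11 are olfactory receptor genes or pseudogenes of that family.

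The DNA before the start of 5 of these genes is printed to show what regulatory sequence in each class looks like, since the sequence of the regions themselves was not at hand. Each line has the 250 bases before the start (RefSeq, GRCm38.p6, 5′ to 3′ in the direction of the gene). Capitals mark matches, on either strand, to the NF-kappaB consensus, the CCAAT box (CCAAT) or the cyclic AMP response element (TGACGTCA).
H2-K1: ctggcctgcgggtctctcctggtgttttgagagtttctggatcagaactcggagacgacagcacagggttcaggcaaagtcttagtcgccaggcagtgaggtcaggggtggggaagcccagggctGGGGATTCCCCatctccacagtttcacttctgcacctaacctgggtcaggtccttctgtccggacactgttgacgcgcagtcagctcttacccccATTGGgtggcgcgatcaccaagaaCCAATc
H2-D1: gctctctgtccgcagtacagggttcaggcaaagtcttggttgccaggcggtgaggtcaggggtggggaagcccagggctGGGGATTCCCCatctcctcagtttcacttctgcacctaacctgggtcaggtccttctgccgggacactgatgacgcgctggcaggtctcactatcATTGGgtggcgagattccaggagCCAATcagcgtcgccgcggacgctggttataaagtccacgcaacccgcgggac
H2-Aa: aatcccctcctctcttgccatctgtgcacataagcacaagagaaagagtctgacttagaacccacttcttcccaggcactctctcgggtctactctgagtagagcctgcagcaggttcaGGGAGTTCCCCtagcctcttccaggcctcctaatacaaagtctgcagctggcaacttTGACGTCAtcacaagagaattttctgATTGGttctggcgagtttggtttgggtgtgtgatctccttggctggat
Tnf: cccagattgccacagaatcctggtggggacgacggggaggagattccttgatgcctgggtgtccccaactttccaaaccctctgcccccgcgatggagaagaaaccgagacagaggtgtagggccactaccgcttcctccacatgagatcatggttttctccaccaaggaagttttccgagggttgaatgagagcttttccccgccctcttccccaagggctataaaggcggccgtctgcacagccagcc
Ltb: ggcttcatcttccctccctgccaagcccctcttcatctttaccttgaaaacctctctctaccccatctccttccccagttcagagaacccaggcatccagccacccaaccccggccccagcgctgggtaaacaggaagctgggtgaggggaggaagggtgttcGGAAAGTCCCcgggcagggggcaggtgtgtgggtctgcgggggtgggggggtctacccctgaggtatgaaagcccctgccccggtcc
H2-K1 and H2-D1, classical class I genes that lie on opposite sides of class II and class III, were 87.2% identical over 203 aligned bases. Both hold the run GGGGATTCCCC, in which 2 NF-kappaB matches overlap. H2-Aa, which encodes the alpha chain of a class II molecule, holds TGACGTCA before a CCAAT box, and was the only gene of the 3 class lists with that match. Tnf shows no capitals because none of the 3 motifs is in these letters, and Ltb, a subunit of membrane lymphotoxin, has 1 NF-kappaB match.

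Among the genes listed for each class, the CCAAT box was found before 7 of 7 class II genes, 12 of 15 class I genes and 3 of 11 class III genes with a sequence at hand. It was in 33.8% of all 32851 entries of the table over the same length. The NF-kappaB consensus was found before 8 of 15 class I genes, 1 of 7 class II genes and 4 of 11 class III genes, against 7.25% of all entries. The cyclic AMP response element was found before 1 of 7 class II genes, 0 of 15 class I genes and 0 of 11 class III genes, against 1.55% of all entries. The genes are not independent, because 6 class I genes (H2-K1, H2-D1, H2-Q4, H2-Q6, H2-Q7 and H2-Q10) were at least 80% identical in all 15 pairs among them. The most alike pair was H2-Q6 and H2-Q7, at 97.6% over 210 aligned bases. In class III the heat shock genes Hspa1a and Hspa1b reached 98.8%, and in class II 1 of 21 pairs, H2-DMb1 with H2-DMb2, reached 83.3%. How reads that matched several such copies were placed is not given in the sources used here, and its part in the counts of regions was not tested. A match is a description of the letters and not of a bound site.

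Open regions were dense over the MHC. It held 111.9 regions per Mb, against 31.5 per Mb on chromosome 17 outside it, a ratio of 3.56. The outside length was counted from base 1, and counted from 3 Mb the ratio was 3.44. The ratio was 1.72 against only the outside windows of 100 kb that hold a region. The ratios given below for stretches and their parts count the empty outside length too. They would also be lower against occupied windows alone. The MHC made up 3.88% of the chromosome up to its last region and held 12.6% of its regions. Bases inside regions were 2.23% of the MHC (82325 bp) and 0.631% of the rest. Because the series has 1 list and no replicate of it, the differences between stretches are descriptions, with no test and no spread between animals. The intervals given with some values are 95% intervals that take regions or gaps as independent draws.

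In windows of 100 kb, the MHC averaged 11.2 ± 9.18 regions (SD, n = 37 windows; median 8, range 0 to 36). The rest of chromosome 17 averaged 3.25 ± 4.79 (n = 885 windows from 3 Mb on; median 0, maximum 23). A window was called dense at 10 or more regions, from the 90th percentile outside the MHC. Dense windows numbered 18 of 37 in the MHC, or 48.6%, against 12.3% outside it. Windows without a region were 4 of 37 in the MHC, or 10.8%, against 50.1% outside it. The spread in both sets was wide, and the counts overlapped: 19 MHC windows were below the dense threshold. Still, 4 MHC windows exceeded the maximum of all windows outside, with 24, 25, 28 and 36 regions. That excess depends on where windows begin, since with windows shifted by 50 kb the highest counts were 29 in the MHC and 26 outside it.

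**Figure D1:**
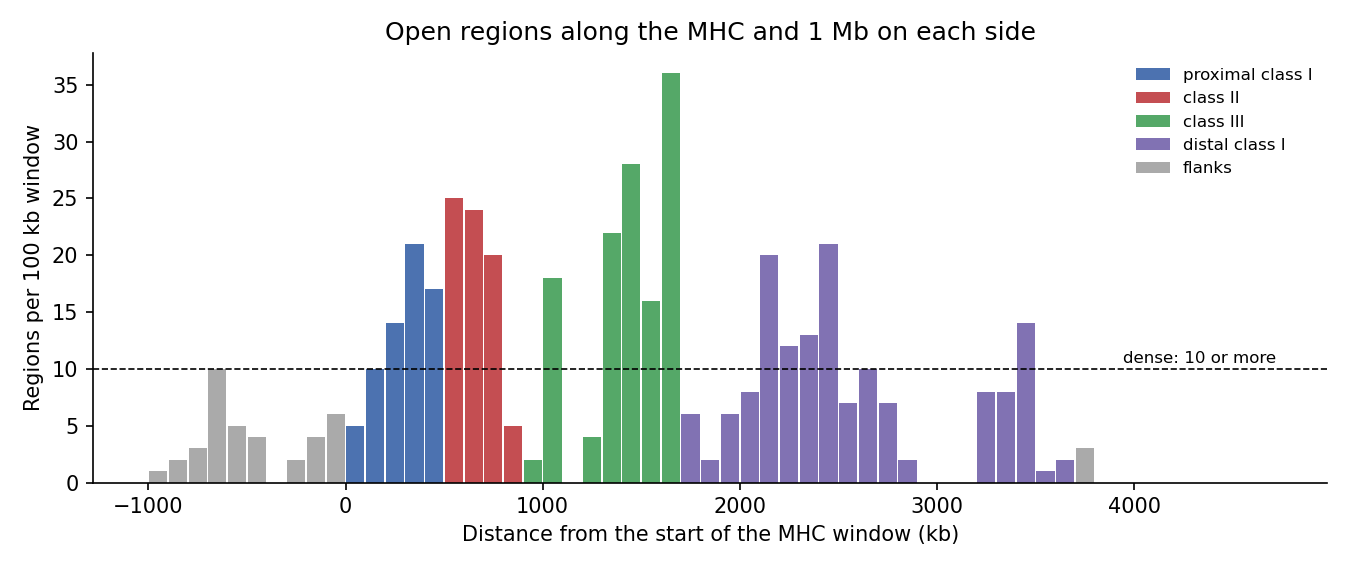
Regions per 100 kb window (vertical axis) by distance in kb from the start of the MHC window (horizontal axis), coloured by stretch, with 1 Mb of flank on each side in grey; the dashed line is the dense threshold of 10. Counts average 3.7 on the flank before the MHC, where 1 window reaches 10, and 0.3 on the flank after it. Class II and the end of class III are high (25 and 36 at most), and empty windows lie within class III and the distal class I stretch.

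**Figure D2:**
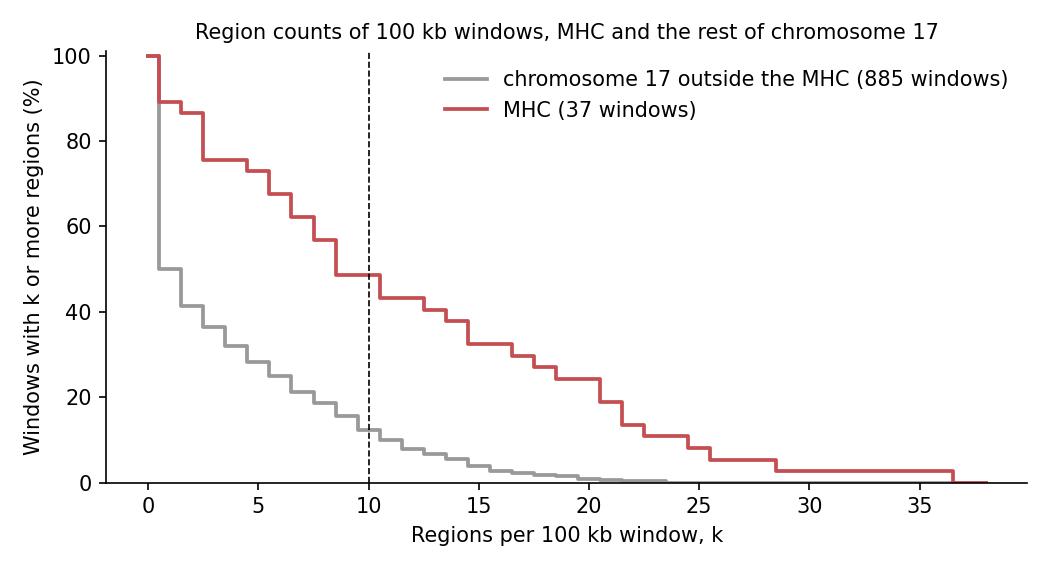
Share of 100 kb windows (vertical axis, %) that hold at least the number of regions on the horizontal axis, for the 37 MHC windows (red) and the 885 other windows of chromosome 17 (grey); the dashed line marks 10 regions. At that line the shares are 48.6% and 12.3%, and the red line ends at 36 regions and the grey at 23.

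The proximal class I stretch, on the side of H2-K1, held 67 regions, or 134 per Mb, 4.26 times the density outside the MHC. Its 5 windows held 5, 10, 14, 21 and 17 regions in order, so those nearer to class II were fuller. Outward from it, the 1 Mb before the MHC averaged 3.7 ± 2.87 regions per window (SD, n = 10), close to the mean of the rest of the chromosome. The genes in order from Daxx to H2-K1 include Tapbp, which encodes tapasin, a chaperone of class I peptide loading. The stretch held 3 clusters, defined as runs of 10 or more regions with gaps under 12500 bp. The largest of the 3 had 20 regions over 65.1 kb (mm9, chromosome 17, 34027703 to 34092839). In its middle, 5 regions between 34066341 and 34068341 were set apart by gaps of 71, 551, 45 and 217 bp, with 8375 bp free before them and 8876 bp after. A cluster of 11 lay before it (33939245 to 33988561), and 1 of 10 regions after it (34105558 to 34137376).

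The class II stretch was the densest of the 4, with 74 regions in 0.4 Mb, or 185 per Mb, 5.88 times the density outside. Regions covered 3.72% of its bases. Its first 3 windows held 25, 24 and 20 regions and its last, from 34500 to 34600 kb, held 5. The windows averaged 18.5 ± 9.26 (SD, n = 4). Those of class III averaged 15.75 ± 12.98 (SD, n = 8), so the windows of the 2 stretches overlapped. These SDs describe windows of 1 list and do not measure the error of a stretch's density. The lead over class III was lost when all inner borders were moved 100 kb toward the end. Class II then had 127.5 and class III 162.5 per Mb.

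Class II regions fell into 3 clusters that held 57 of the 74. The first had 23 regions over 79.0 kb (34229434 to 34308401) and was second in size on chromosome 17. The second had 15 regions in 32.0 kb (34324255 to 34356290), and 9.53% of its bases lay in regions. The third had 19 regions over 69.3 kb (34422938 to 34492213). The second was thus the most compact of these, at 4.68 regions per 10 kb against 2.91 and 2.74. Most of its regions stood singly: 10 of them, from 34333516 to 34348971, were separated by 423 to 3372 bp. It ended in a tight group of 3 (34355583 to 34356290), 335, 150 and 160 bp wide, with gaps of 6 and 57 bp. After the third, the stretch was thinly filled, and a run of 144 kb without any region (34548371 to 34692512) crossed from class II into class III.

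The class III stretch held 126 regions, or 157.5 per Mb, 5.01 times the density outside, and split into a sparse and a dense part. From 34600 to 35000 kb there were 24 regions, of which 18 lay in the window from 34700 to 34800 kb. The next window held none and the one after it 4. The second longest gap of the MHC, 183 kb (34791091 to 34973643), lay here. From 35000 to 35400 kb there were 102 regions, in windows of 22, 28, 16 and 36. The dense part had 255 per Mb against 60.0 in the sparse part, or 8.10 against 1.91 times the density outside the MHC. The break at 35000 kb was set after the counts were seen.

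The window from 35300 to 35400 kb, with 36 regions, ranked first of the 922 windows of chromosome 17. Of 25744 windows of 100 kb on chromosomes 1 to 19 and X, 1 held more, with 37, and 4 held as many. Regions covered 7.35% of the window, and their median width was 203.5 bp. It makes up most of the largest cluster of the chromosome, 39 regions over 110 kb (35301924 to 35412001), which runs 12001 bp past the border into the distal class I stretch. Its gaps had a median of 1643 bp and a maximum of 8635 bp, and 9 of its 38 gaps were under 500 bp. The tightest group in it was 4 regions between 35378287 and 35379850, with gaps of 29, 215 and 479 bp. By the rounded borders, Ltb, Tnf and Lta belong to class III. Whether this cluster holds them could not be read from the files.

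The densest 10 kb of the whole complex lay elsewhere in class III. It held 9 regions between 35089332 and 35098376. They formed close groups: the first 3 were 58 and 38 bp apart, the next 2 were 288 bp apart, and the last 4 had gaps of 192, 71 and 791 bp, with 2847 and 2779 bp between the groups. This was the start of a cluster of 19 regions in 32.1 kb (35089332 to 35121445), the most compact of the 12 MHC clusters at 5.92 regions per 10 kb. Regions made up 12.1% of its bases, and its median gap was 413.5 bp. Smaller class III clusters had 11 regions in 22.2 kb (35183648 to 35205857) and 10 in 40.5 kb (35243022 to 35283517). All 4 clusters of class III began after 35000 kb. The 18 regions from 34700 to 34800 kb formed runs that fell short of 10 regions, with a break between 34742877 and 34756035.

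The distal class I stretch, which runs from the side of H2-D1 through the H2-Q and H2-T genes to the H2-M genes, had the lowest density of the 4. It held 147 regions, or 73.5 per Mb, which was still 2.34 times the density outside with its empty windows counted. The density changed along it. The first 4 windows, from 35400 to 35800 kb, held 6, 2, 6 and 8 regions, with a gap of 104 kb among them (35517262 to 35621113). From 35800 to 36200 kb the windows held 20, 12, 13 and 21, all dense. From 36200 to 36600 kb they held 7, 10, 7 and 2. No region lay in the 3 windows from 36600 to 36900 kb, inside the longest gap of the MHC, 394 kb (36568712 to 36962618). After the gap came windows of 8, 8 and 14, and the last 2 held 1 and 2, around a gap of 120 kb (37220547 to 37340664).

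Split at 36400 kb, the first part of this stretch had 105 regions per Mb and the second 42.0 per Mb, or 3.34 and 1.33 times the density outside. Of the windows of the second part 1 of 10 was dense, a share close to the 12.3% outside the MHC. The 2 clusters of the stretch had 15 regions in 41.1 kb (35862550 to 35903671) and 10 in 29.3 kb (36382808 to 36412127). The first of them had 1 gap under 500 bp in 14, and its median width of 216 bp was the highest of the 12 clusters. Beyond the MHC, the 1 Mb to 38400 kb held 3 regions, all in its first window. A gap of 2.57 Mb (37408038 to 39980955) followed, the third longest of the chromosome outside the MHC.

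**Figure D3:**
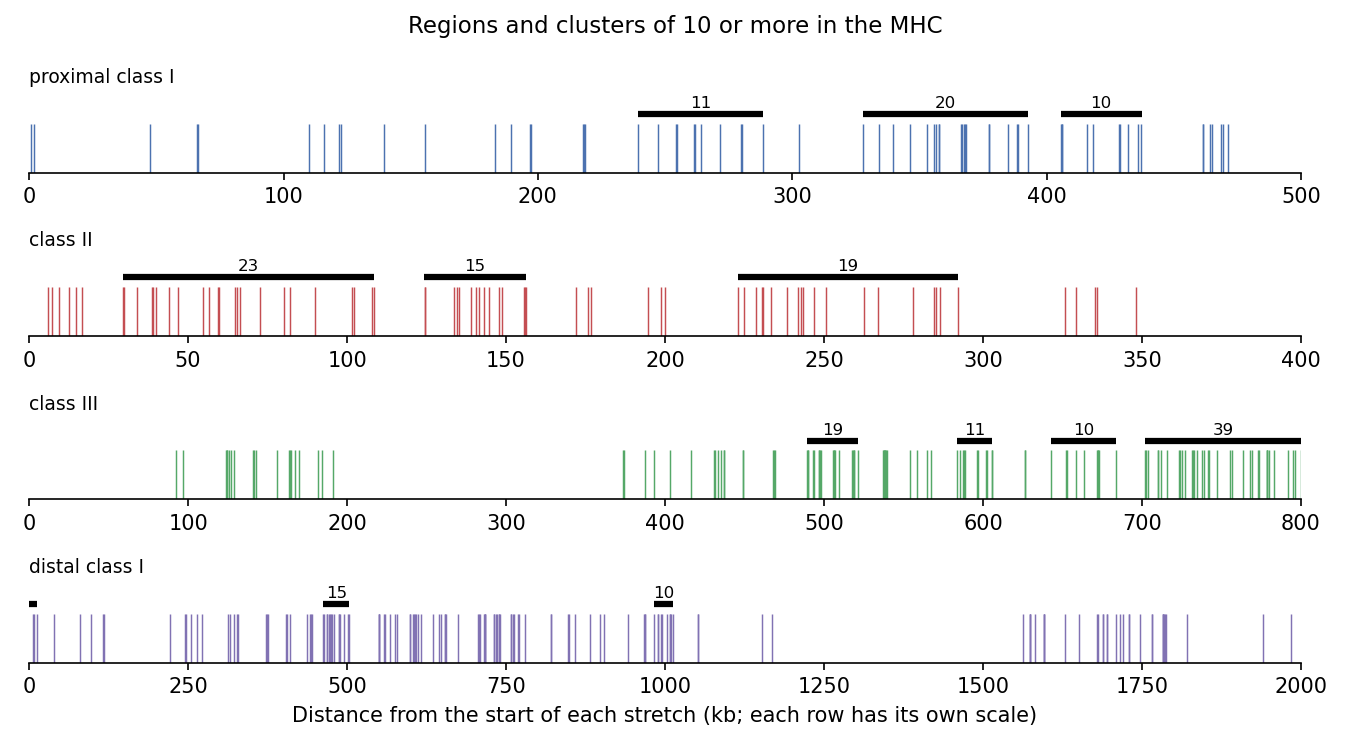
Each vertical line is 1 region, at its distance in kb from the start of its stretch (horizontal axes, each with its own scale); black bars span clusters of 10 or more regions linked at gaps under 12500 bp, with their number of regions. Class II is filled but for its end, class III is filled after an interrupted start and ends in the cluster of 39, and the distal class I stretch has a gap of 394 kb.

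Neighbouring regions lay closer together in the MHC than elsewhere on the chromosome. The median gap was 2644 bp (95% interval 2125 to 3420 bp, n = 413 gaps) in the MHC and 5360 bp (4834 to 5923 bp, n = 2879) outside it. Class III had the shortest median, 1529 bp (905 to 2651 bp), followed by class II with 2675 bp (1607 to 3666 bp). The proximal class I stretch had 3561 bp (1346 to 6541 bp) and the distal one 4255 bp (2164 to 6218 bp). The 4 intervals overlap in part, so this order is not settled by these gaps alone. Gaps under 12500 bp were 82.1% of those in the MHC (78.0 to 85.7%), with 91.8% in class II and 72.6% in the distal class I stretch, and 68.4% (66.6 to 70.1%) outside the MHC.

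At very short range the MHC differed less from the rest. Gaps under 500 bp were 25.2% of MHC gaps (21.1 to 29.7%) and 22.8% (21.3 to 24.4%) of those outside, and the intervals overlap. Within the complex, class II had 15.1% such gaps (7.77 to 25.4%) and class III 32.8% (24.7 to 41.8%). The proximal class I stretch had 30.3% (19.6 to 42.9%) and the distal one 21.9% (15.5 to 29.5%). The intervals of the 4 stretches overlap, and that of class II also holds the value outside the MHC. The interval of class III began at 24.7%, next to the 24.4% at which the one outside ended. Those of the class I stretches overlapped the one outside. Neighbouring gaps of 1 list are not replicates, so the class III share is a description and not a tested excess. Centres less than 400 bp apart were 66 of 413 neighbour pairs in the MHC, or 15.98% (12.6 to 19.9%), and 12.8% (11.6 to 14.1%) outside. Every pair with centres that close also has a gap under 500 bp, so this measure is no separate evidence beside those gaps. By it class II had 12.3% (5.80 to 22.1%) and class III 21.6% (14.7 to 29.8%). The proximal class I stretch had 19.7% (10.9 to 31.3%) and the distal one 11.6% (6.93 to 18.0%). The shortest gap, 5 bp, separated regions of 187 and 208 bp in the distal class I stretch (the gap spans 37165808 to 37165812). The next 4 measured 6, 17, 19 and 20 bp, and 1 of them lay in each of the 4 stretches.

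**Figure D4:**
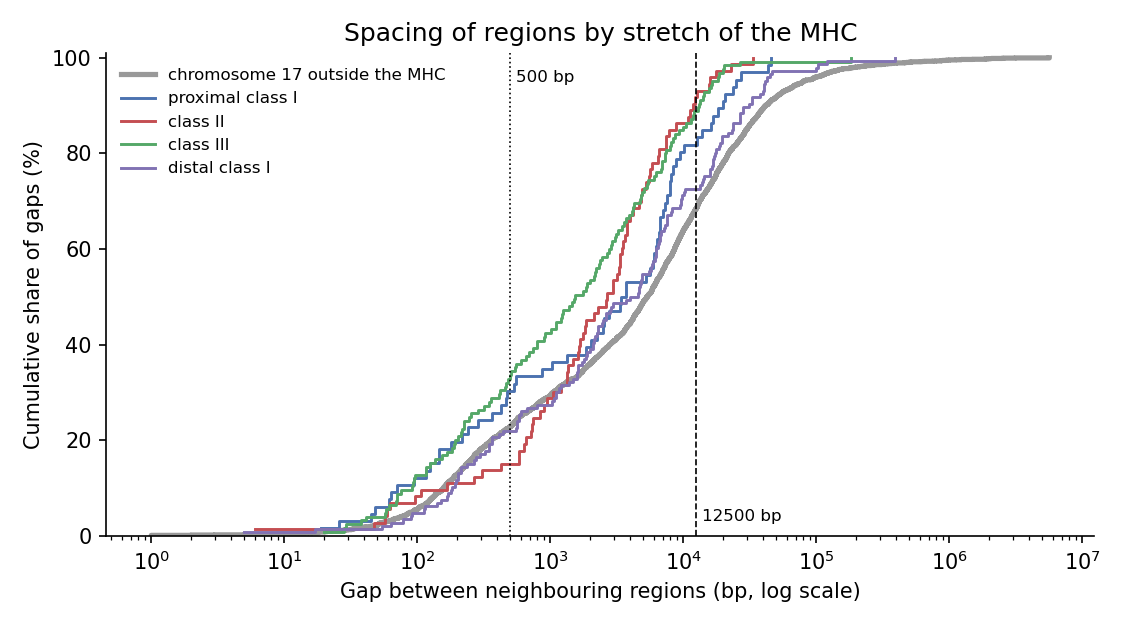
Cumulative share of gaps between neighbouring regions (vertical axis, %) by gap length (horizontal axis, bp, log scale) for the 4 stretches (colours) and chromosome 17 outside the MHC (grey); lines mark 500 bp and 12500 bp. At 12500 bp class II stands at 91.8% and the grey line at 68.4%, while at 500 bp class II is the lowest (15.1%) and class III the highest (32.8%).

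Clusters of 10 or more regions numbered 12 in the MHC and 44 on the rest of the chromosome, or 3.24 and 0.481 per Mb. With links under 25 kb they were 10 and 86. Of MHC regions, 202 of 414 (48.8%, interval 43.9 to 53.7%) lay in such clusters, against 21.5% of the 2881 regions outside. Regions with no neighbour within 12500 bp were 20 of 414, or 4.83%, in the MHC and 11.8% outside. A cluster count rises with density itself and is no separate evidence beside the windows.

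Widths differed little between the MHC and the rest. The median width was 188 bp (185 to 193 bp) in the MHC and 190 bp (188 to 192 bp) outside, with overlapping intervals. By stretch it was 185 bp in the proximal class I stretch, 184.5 bp in class II, 188 bp in class III and 196 bp in the distal class I stretch. Regions of 150 bp or less were 14.01% of the MHC (10.8 to 17.7%) and 16.1% (14.8 to 17.5%) of the rest. Regions of 400 bp or more were 4 of 414 (0.966%), against 0.798% outside. The widest, of 453 bp (34529035 to 34529487), lay in the last window of class II, 3275 bp from its nearest neighbour, and ranked 13th of chromosome 17. The next 3, of 439 bp (35978223 to 35978661), 419 bp (35841683 to 35842101) and 407 bp (35863910 to 35864316), all lay in the dense part of the distal class I stretch. The fifth, of 389 bp (35109294 to 35109682), lay in the most compact class III cluster. The cluster of 39 regions had none over 321 bp.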

How the data were processed

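ATAC-seq was done on 16 samples. Nuclei of 10000 sorted cells were transposed at 37 °C for 60 min, and fragments under 600 bp were selected between PCR rounds, per the labels' protocols. The authors deposited 1 list of regions with chromosome, start and end, per the file header, and no score, count or signal. Tools named, per the submitters' processing notes, were Bowtie2 2.2.4, HOMER 4.6, cutadapt 1.8.3, Picard 1.130 and SAMtools 1.3, with build mm9 and no roles or settings. These steps decide which regions exist, but the calling threshold, pooling of samples, cut-site shifts and treatment of reads that match several places were not given in the sources used here.

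Positions are 1-based. Regions were given to a 100 kb window or stretch by their centre. Gaps count the bases between neighbours. Windows in the first 3 Mb, unsequenced in mouse assemblies, were left out. Densities per Mb outside the MHC still count those 3 Mb in the length. Shares carry exact binomial (Clopper-Pearson) intervals, and medians carry intervals from binomial ranks. Upstream sequences were aligned globally with free ends (Biopython 1.88), with at least 150 aligned bases for a pair to count as alike; for a gene with several starts the farthest downstream was used. Of 17 class I, 9 class II and 16 class III genes listed, all were in the gene table, and 15, 7 and 11 had an upstream sequence. Computation used Python 3.11.15, pandas 2.3.3 and SciPy 1.17.1. On simulated data, with no regions between the planted clusters, the scripts recovered 40 of 40 window counts and 20 of 20 clusters. This checks the code alone and does not bear on the deposited list.

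The rule for named items took the 10 fullest and all empty MHC windows, every cluster, the 5 widest regions and the 5 longest and shortest gaps. The members, stretches and lists were chosen with earlier results of these data known. Alternatives changed the width filter, merging, stretch borders, window size and link distance. Groups came from the sample titles, which number the replicates and name the tissue paired with each spleen. Mouse numbers were assigned from those titles, and no comparison between samples was made.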

Additional observations from a re-analysis of the deposited data

How the results depend on the processing

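No paired analysis was possible because positions are the only values deposited, and leaving out single replicates was likewise out of reach. Of 35 alternatives, 18 moved a value beyond its interval or 1.5 times. None put the MHC or 1 of its stretches below the rest of the chromosome in density, but the order of the stretches changed with their borders. Keeping only regions of the list's median width or more left 198 MHC regions. The proximal class I, class II, class III and distal class I stretches then had 58, 72.5, 72.5 and 41 per Mb. Class II and III were tied, and the median gap was 7358 bp in the MHC and 12484 bp outside it. Merging within 500 bp gave 94 per Mb in the proximal class I stretch, 157.5 in class II, 106.25 in class III and 57.5 in the distal one. The median gap was then 5110 bp in the MHC and 9071 bp outside it. The falls in density follow from fewer regions. The rest of the chromosome fell too, so the density ratio of the MHC stayed at 3.45 in both settings. It was 1.72 when only the 442 outside windows that hold a region were kept, with the 4 empty MHC windows still counted, and 1.93 when empty windows were left out on both sides, an alternative chosen after seeing the data. Borders 100 kb toward the start gave 215 per Mb in class II and 118.75 in class III. The latter was below the 125 of the proximal class I stretch, and the distal stretch had 87.1. Borders 100 kb toward the end gave 127.5 in class II, below 162.5 in class III and 153 in the proximal class I stretch. Clusters fell to 4 with links under 5 kb and to 3 at 20 or more regions, against 1 and 5 outside the MHC. With links under 25 kb they were 10 in the MHC, while those outside went from 44 to 86. The median width was 196 bp among regions wider than 150 bp. With no depth, an empty window shows that no region was called there and says nothing about closed chromatin.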

Other observations

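Stretches as long as the MHC and as full were rare but not absent. Of 812 windows of 3.7 Mb on chromosome 17 that did not overlap it (steps of 100 kb, so neighbours share most of their length), the median held 110 regions and the fullest, from 25900001 to 29600000, held 353, against 414 in the MHC. On the 19 other chromosomes, 20 of 24138 such windows reached 414. They lay on 3 chromosomes: 4, with up to 456 regions (132100001 to 135800000), 10, with up to 421, and 11, with up to 414. Chromosomes 15 and 2 came close, with 407 and 405. In the same steps X reached 130 at most. Of the 37 MHC windows of 100 kb, 9 were at or above the 99th percentile of all 25744 windows (20 regions).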
